A study of Mus musculus with 24 samples.

Results

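A set of 40 long neuronal mRNAs that are widely reported to be bound by FMRP was examined in the hippocampus of WT and Tsc2+/- mice. The set was drawn up by gene name, and all 40 mRNAs were found among the 23845 genes of the RNA-seq table and the 20436 genes of the ribosome profiling table. FMRP, the RNA-binding protein lost in Fragile X syndrome, associates with the coding sequences of many long mRNAs for synaptic and cytoskeletal proteins and is known as a brake on their translation. Group I metabotropic glutamate receptors, which DHPG activates, trigger a long-term depression of synapses (mGluR-LTD) that depends on new protein synthesis. TSC2, with TSC1, restrains the growth-promoting kinase complex mTORC1, and loss of one copy of either gene causes tuberous sclerosis.

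The mice were WT and Tsc2+/- littermates, male and aged 28 to 42 days per the labels. The Tsc2+/- mice carried a germline heterozygous deletion in every tissue, made with CMV-Cre and a floxed Tsc2 allele and bred on C57BL/6J. Acute hippocampal slices, from which CA3 had been cut off, were given vehicle or 100 µM DHPG for 5 min. A lysate pooled the slices of more than 1 mouse. Each of the 4 groups (WT vehicle, WT DHPG, Tsc2+/- vehicle and Tsc2+/- DHPG) held 3 lysates, and each lysate gave 1 RNA-seq library and 1 library of ribosome-protected fragments (RPFs). Cycloheximide, which stops ribosomes on the mRNA, was present in the lysis buffer of all groups. The slices are bulk tissue, so fewer cells of a type and less RNA per cell cannot be told apart.

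RNA libraries held 14801679 to 24067838 counts and RPF libraries 5296006 to 13613673 counts. Tsc2 RNA, at 185.9 to 214.3 CPM (counts scaled to the normalised library total) in WT and 128 to 136.6 CPM in Tsc2+/- libraries, followed the genotype labels in every library. All 5 CA1 pyramidal markers were detected, with a summed RNA level of 1635 to 1779 CPM over the 12 libraries. Of the CA3 markers, 4 of 5 were in the table, with a sum of 76.03 to 98.7 CPM. Marker sums use library totals that were not normalised. The RPF counts of replicates 2 and 3 were nearly all even (at least 97.9% of values). The RNA library and the RPF to RNA ratio of WT vehicle replicate 3 stood apart for the FMRP targets, while its RPF library was highest by little. The medians of the 40, those of their role groups and the values of many single targets are therefore also given without both of its libraries.

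The targets were long and, for the most part, abundant. Their coding sequences had a median length of 7999.5 bases (range 2454 to 23154), against 1443 bases over the genes tested for RPFs, and 34 of 40 exceeded 4000 bases. The median GC content of 54.3% was near the 53.1% of all genes. In the WT vehicle libraries, RNA per kb of transcript had a median of 25.5 CPM against 8.24 over all genes, and RPFs per kb of coding sequence a median of 31.5 CPM against 16.7. The letters AGGA and TGGA have been reported in sequences that FMRP binds, and they were counted on the coding strand of each mRNA, with overlaps allowed. The targets held a median of 16.0 of these per kb, with a range of 10.75 to 30.15, and all genes held 16.3 per kb. At least 1 of these letter groups was found in 36.3% of the targets' consecutive stretches of 30 coding bases and in 35.8% of those of all genes. At least 3 were found in 1.21% and 1.07%.

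To show what these letters look like, the densest stretch of 30 bases within 1 coding exon is given for Prrc2a, whose RPFs per RNA differed most between treatments, and for the targets with the most (Ppp1r9b) and the fewest (Nlgn2) such letters per kb. The sequences are those of RefSeq on GRCm38.p6, read 5′ to 3′ on the coding strand, with AGGA and TGGA in capitals. The Prrc2a stretch is at chr17:35153705-35153734 on the minus strand, that of Ppp1r9b at chr11:95005084-95005113 on the plus strand and that of Nlgn2 at chr11:69827182-69827211 on the minus strand.
Prrc2a: cagtctgacagTGGAgTGGAcctgagTGGA
Ppp1r9b: cAGGAAGGAGGAaaTGGAcaaacttcTGGA
Nlgn2: gttcgTGGAGGActctgcagagagtgAGGA
Within these 30 bases, Ppp1r9b held 5 starts of the letters and the other two 3 each. Such a match describes letters and is not a binding site.

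Basal use of these mRNAs by ribosomes varied widely. In WT vehicle slices the RPF to RNA ratio per kb had a median log2 value of 0.44 over the 40 targets and of 1.14 over 12533 genes, and 35 of 40 targets were below the latter. Genes of like coding length (the middle 80% of the targets' range, 1299 genes) had a median of 0.48, and the 307 genes that also matched the targets' RNA level had 0.19. The lowest ratios were those of Agap2 (−2.62), a GTPase-activating protein that enhances PI3K signalling, and of Ppp1r9b (−2.44), which encodes the spine scaffold spinophilin that anchors protein phosphatase 1. Adcy1, the calcium-stimulated adenylyl cyclase of synapses, followed at −1.90 and Prrc2a, a large RNA-associated protein, at −1.47. These 4 mRNAs were themselves abundant, at 412, 462, 67.2 and 97.7 CPM of RNA per kb. At the other end stood the presynaptic adhesion receptor gene Nrxn3 (1.76) and its postsynaptic partner Nlgn3 (1.63). RNA was scaled by transcript length and RPFs by the trimmed coding length, so the zero of this scale has no meaning of its own.

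The first comparison asked what 5 min of DHPG did in WT slices. Over the 40 targets RNA was on balance higher and RPFs lower in the DHPG libraries, so that RPFs per RNA, here called translational efficiency (TE), showed the largest difference. The median log2 fold change was 0.063 for RNA (32 targets above 0), −0.12 for RPFs (37 below 0) and −0.23 for TE (37 below 0). The medians over all genes tested were −0.0016, −0.0019 and −0.00036. Genes of like expression had medians of 0.013, 0.0082 and −0.030.

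By edgeR's quasi-likelihood test with Benjamini-Hochberg adjustment over all genes, a gene was called at an adjusted p under 0.1. For TE, 1 of 40 targets was called, Prrc2a, while 0.0548% of all genes tested were. None was called for RNA (0% of all genes) or for RPFs (0.0311% of all genes), and DESeq2 called none there either. At an unadjusted p under 0.05, 12 targets had higher RNA (3.7% of all genes) and 0 lower (2.75%), 9 had lower RPFs (2.92%) and 0 higher (3.79%), and 19 had lower TE (4.66%) and 0 higher (4.4%). With DESeq2 the TE count of called targets was 2, where that tool called 0.79% of all genes. The edgeR fit of TE held no term for the lysate that an RNA and an RPF library shared. Fitted by limma on the ratio of each lysate, fewer targets had lower TE at an unadjusted p under 0.05, and none was called.

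**Figure D1:**
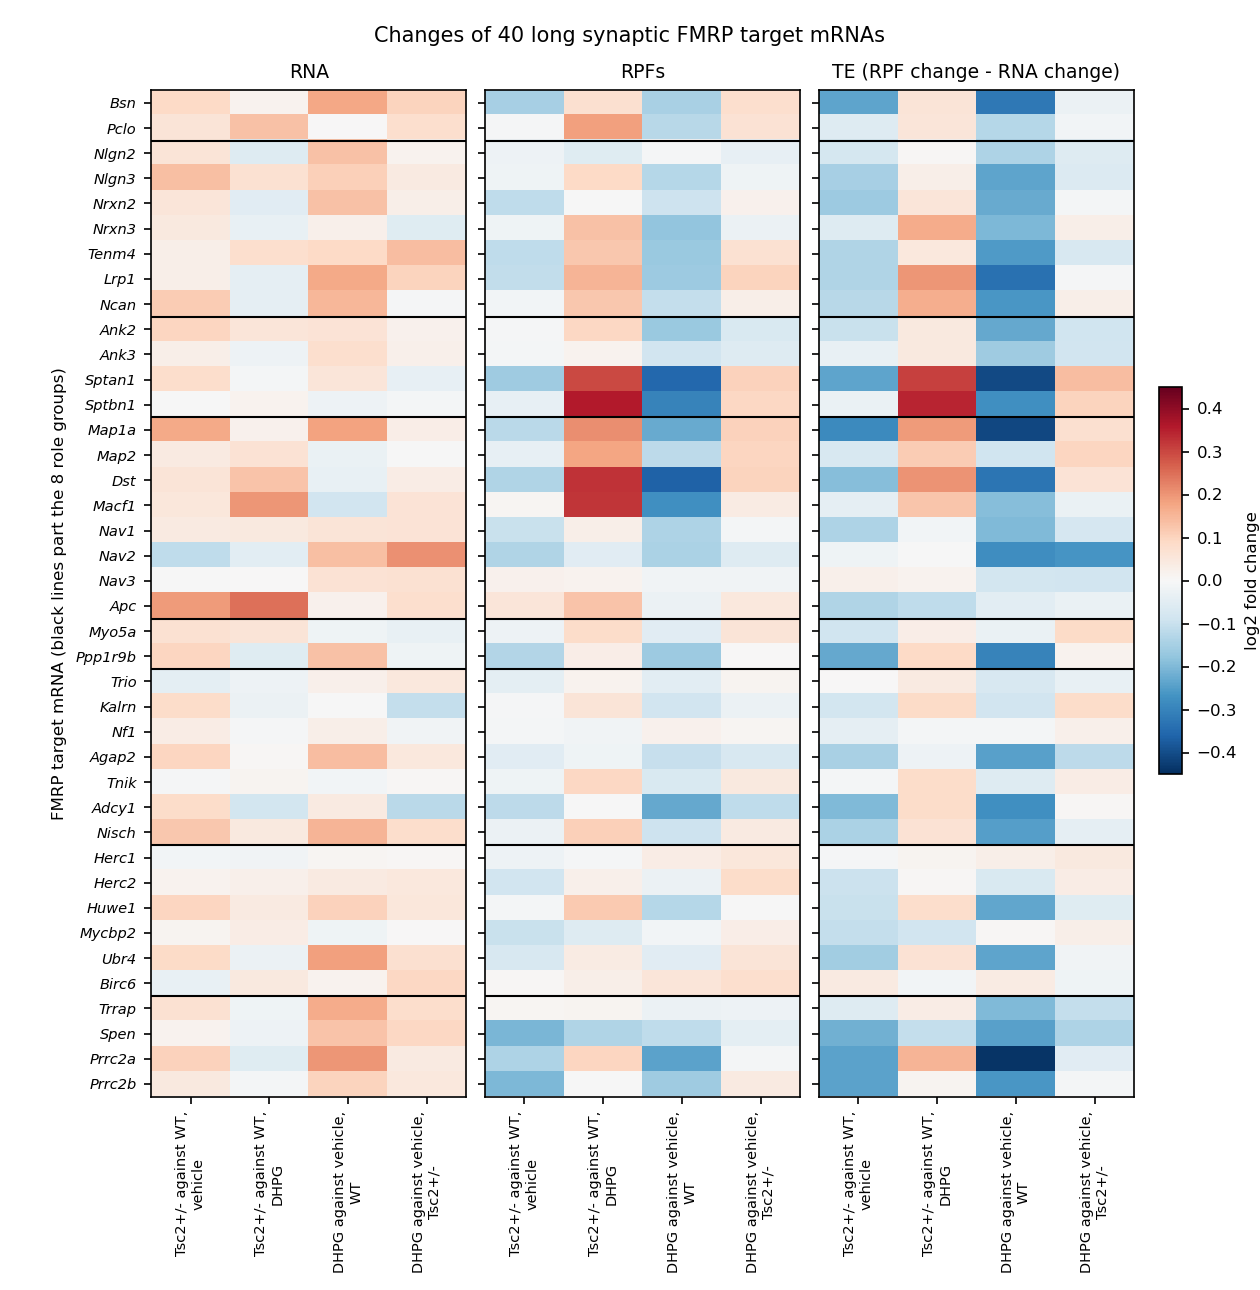
Fitted log2 fold changes of the 40 FMRP target mRNAs (rows, in 8 role groups parted by black lines) in RNA, RPFs and TE, for 4 comparisons (columns); red is higher and blue lower in the group named first. The column of DHPG in WT is mostly red for RNA (32 of 40 above 0) and blue for RPFs and TE (37 of 40 below 0 in each), and the column of DHPG in Tsc2+/- is paler.

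These values depended on 1 lysate. In WT vehicle replicate 3 the targets' median deviation from each gene's mean over 12 libraries was −0.16 for RNA, 0.10 for RPFs and 0.28 for the log2 RPF to RNA ratio. In the other 11 lysates it lay between −0.044 and 0.061, between −0.081 and 0.085, and between −0.12 and 0.079. Other genes of like coding length deviated the same way in WT vehicle replicate 3, by −0.099, 0.096 and 0.20. The RPF library of WT vehicle replicate 3 held the fewest counts (5296006) and detected genes (14073) of the 12. That of Tsc2+/- DHPG replicate 2, at 5397053 counts, had a median deviation of −0.0077 for the targets. In the RNA library of WT vehicle replicate 3, summed astrocyte markers (1761 CPM) and microglia markers (168.6 CPM) were the lowest of the 12. Its pan-neuronal (6051 CPM), CA1 (1658 CPM) and CA3 (77.15 CPM) sums ranked 2 of 12 from the lowest. Those of oligodendrocyte, dentate granule, endothelial, choroid plexus and blood markers ranked from 6 to 10. The part of depth and of these markers in the result was not tested.

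**Figure D2:**
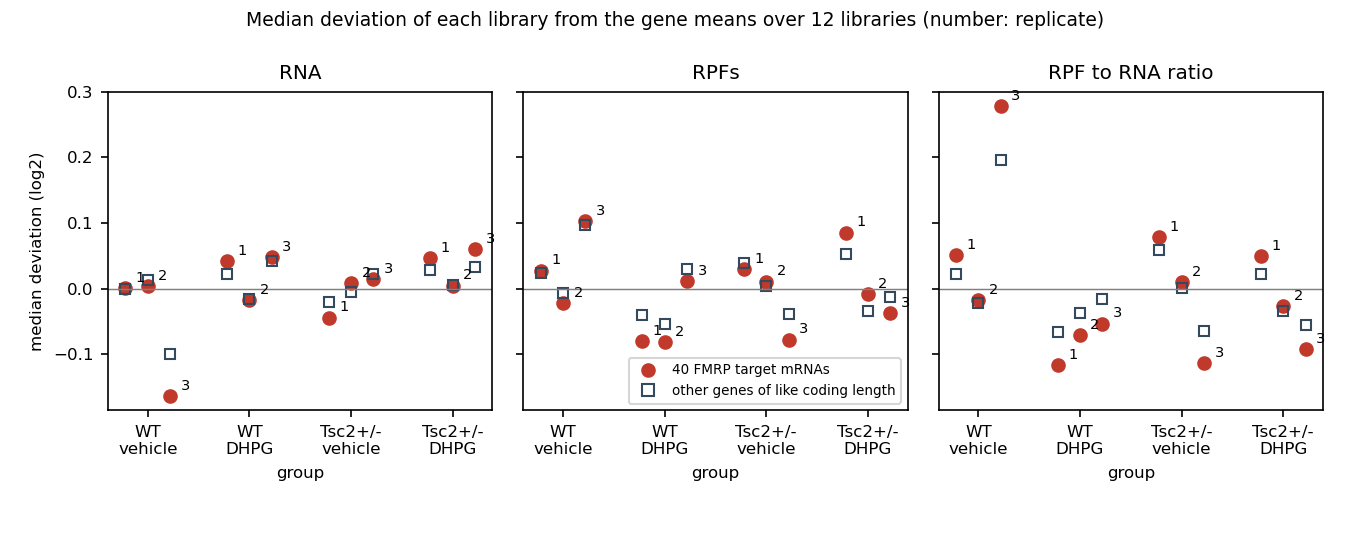
Median log2 deviation of each library from the gene means over 12 libraries, for the 40 FMRP targets (filled circles, replicate number beside them) and other genes of like coding length (open squares), in RNA, RPFs and the RPF to RNA ratio. WT vehicle replicate 3 lies lowest for RNA (−0.16) and highest for the ratio (0.28), and the squares move with the circles.

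Without both libraries of WT vehicle replicate 3, the medians for DHPG in WT were 0.0084 for RNA (21 above 0), −0.036 for RPFs (27 below 0) and −0.070 for TE (27 below 0). At an unadjusted p under 0.05 there were then 3 higher and 1 lower for RNA, 8 lower for RPFs (3.24% of all genes), and 10 lower (4.44%) and 1 higher for TE, and edgeR called 0. The share of all genes is not given for the RNA counts or for higher TE in that fit. Genes of like coding length gave a TE median of −0.028 there. WT vehicle replicate 2 acted in the opposite sense: without it 9 targets were called for RNA, where 0.763% of all genes were, and 13 for TE, where 2.88% of all genes were. In contrasts of libraries with the same replicate number, the median difference in the log2 RPF to RNA ratio was −0.17, −0.040 and −0.32 for replicates 1, 2 and 3, and 10, 11 and 0 of 40 targets were above 0.

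Coding length went with the same changes across all genes. Outside the list, the median TE change with DHPG in WT was 0.081 for genes under 1000 coding bases, 0.0047 from 1000 to 2000, −0.054 from 2000 to 4000, −0.12 from 4000 to 8000 and −0.10 at 8000 or more. The 1299 genes of like coding length had a median of −0.11, and the 307 matched on both length and expression had −0.13. With the trends on coding length and GC content taken out of each library, the targets' medians were 0.020 for RNA, −0.023 for RPFs and −0.040 for TE. In that fit 2 of 40 had lower TE at an unadjusted p under 0.05 in place of 19, and the share of all genes is not given. The trends were fitted without regard to group. A treatment difference that goes with length or GC content is therefore taken out as well. Among the 40 targets themselves, the RNA change followed GC content (Spearman rho 0.74, Pearson r 0.75) and so did the TE change in the opposite sense (rho −0.64, r −0.62), values computed across genes that share the same libraries. Over all genes rho was 0.33 and −0.35. Coding length did not track the changes in this way inside the list. Among the 40, its rho was −0.21 with the RNA change and 0.17 with the TE change, against 0.17 and −0.28 over all genes.

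**Figure D3:**
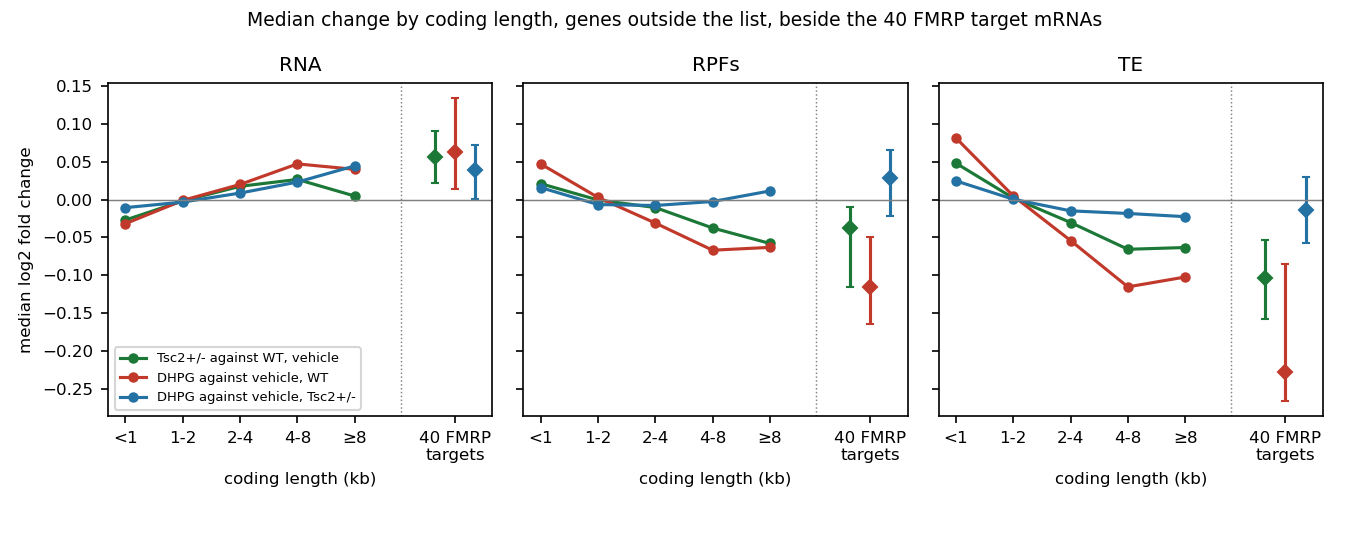
Median log2 fold change of genes outside the list by coding length class (lines) and of the 40 FMRP targets (diamonds, bars from the first to the last quartile), in RNA, RPFs and TE for 3 comparisons. For DHPG in WT the TE line falls from 0.081 under 1 kb to −0.12 at 4 to 8 kb, and the targets lie lower, at −0.23.

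A wider list of 70 other mRNAs reported as FMRP-bound gave medians of 0.077 for RNA, −0.073 for RPFs and −0.14 for TE with DHPG in WT. None of the 70 was called for TE (0.0548% of all genes). At an unadjusted p under 0.05, 25 had lower and 0 higher TE (4.66% and 4.4% of all genes). These values use the same WT vehicle libraries, replicate 3 among them, so they are not independent of those of the 40 targets. The 70 were also chosen with earlier results of these data known, so they are not outside support. The TE median of the 70 was near that of genes matched to the 40 targets on length and expression.

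Prrc2a was the only target called for DHPG in WT. Its RNA stood at 667.2, 727.8 and 617.9 CPM in the 3 WT vehicle libraries and at 787, 743.9 and 779.2 CPM in the 3 WT DHPG libraries. Its RPFs stood at 255.8, 209.5 and 215.3 CPM with vehicle and at 189.7, 192.3 and 193.8 CPM with DHPG. Neither measure overlapped between the treatments, and they moved in opposite directions. Here and below, separate values of 3 against 3 libraries are a description, and the share of all genes that separate is not given. The log2 RPF to RNA ratio, not scaled by length, was −1.38, −1.80 and −1.52 with vehicle and −2.05, −1.95 and −2.01 with DHPG. TE fell by 0.44 on the log2 scale (SE 0.085, 0.737-fold, edgeR adjusted p = 0.0368), with RNA at 0.20 (SE 0.052, adjusted p = 0.541) and RPFs at −0.24 (SE 0.067, adjusted p = 0.403). Over the alternatives tried the adjusted p of the TE change ran from 0.000141 to 0.95, with a log2 fold change of −0.61 to −0.21 throughout. It was 0.14 without WT vehicle replicate 3, 0.401 without WT vehicle replicate 1 and 0.885 without WT DHPG replicate 1. With the length and GC trends removed it was 0.732, and limma on the ratio of each lysate did not call Prrc2a. In Tsc2+/- slices the ratio was −1.86, −1.67 and −1.89 with vehicle and −1.88, −1.78 and −1.91 with DHPG, and the treatments overlapped. Prrc2a lies at chr17:35149076-35165321, on the same chromosome as Tsc2.

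**Figure D4:**
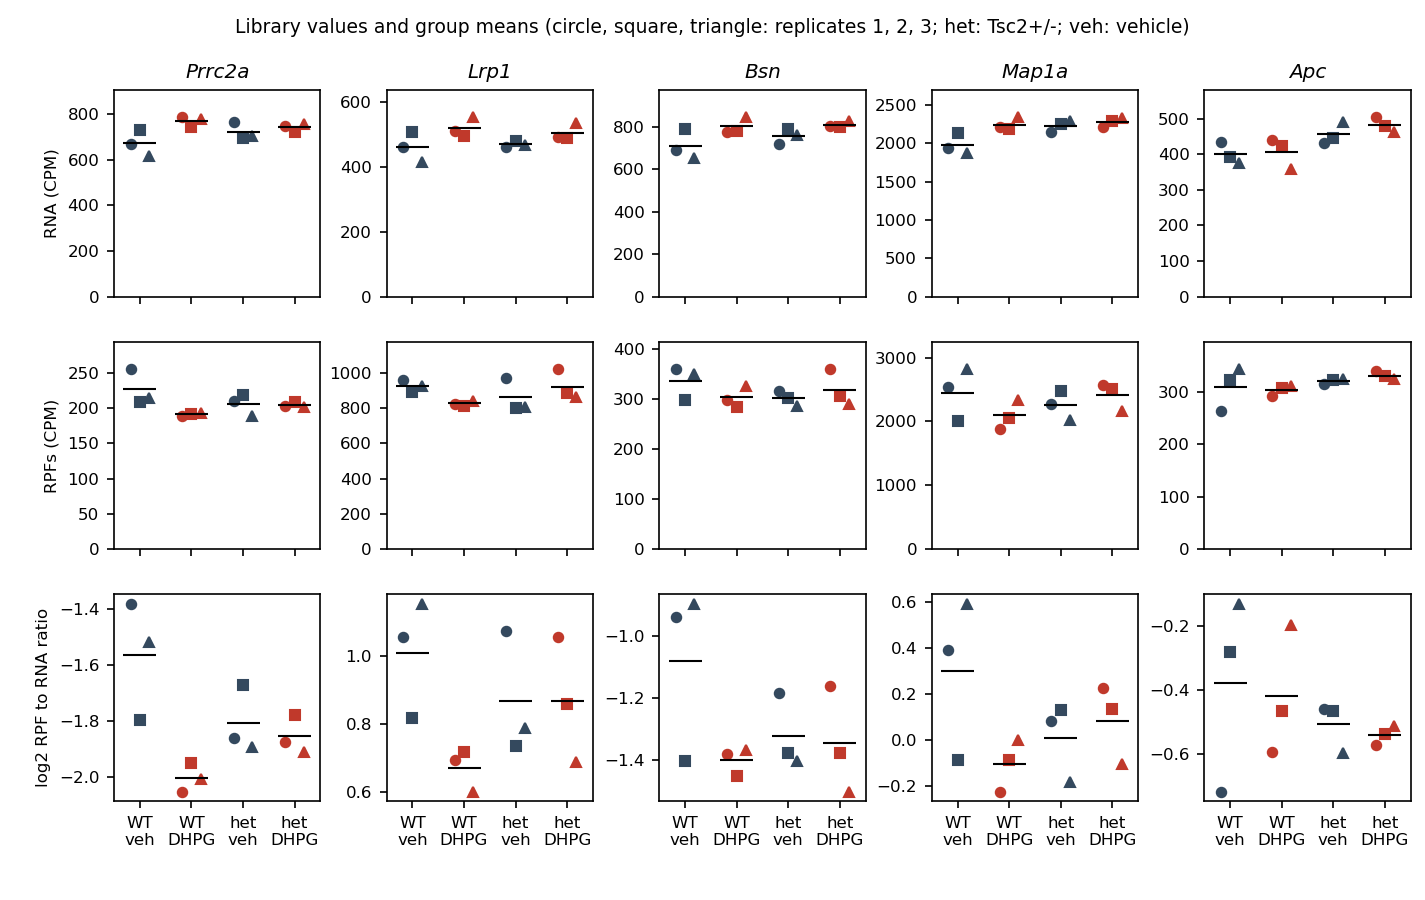
Library values of 5 FMRP targets in the 4 groups: RNA and RPFs in CPM (axes from 0) and the log2 RPF to RNA ratio (axes not from 0), with symbols for replicates 1 to 3 and horizontal lines for group means. The Prrc2a ratios of the 3 WT DHPG lysates, −2.05 to −1.95, all lie below those of the 3 WT vehicle lysates, −1.80 to −1.38.

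Its paralogue Prrc2b had a TE change of −0.26 (SE 0.088, edgeR adjusted p = 0.316) with RPFs at 219.3, 201.5 and 189.8 CPM with vehicle and 175.4, 180.5 and 190.8 CPM with DHPG. Here the RPF values of the treatments overlapped by 1 library. Trrap, a scaffold of histone acetyltransferase complexes, had RNA of 122.7, 133.7 and 119.5 CPM with vehicle and 139.7, 135.7 and 147.2 CPM with DHPG, a log2 fold change of 0.17 (SE 0.060). Spen, a large transcriptional repressor, had a TE change of −0.24 (SE 0.123). All 4 chromatin and RNA-associated targets had higher RNA and lower TE by point estimate, and 3 of 4 had lower TE at an unadjusted p under 0.05. Without WT vehicle replicate 3 the signs held in all 4 and 2 of 4 had lower TE at that p, with Trrap RNA at 0.096, Spen TE at −0.11 and Prrc2b TE at −0.21.

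Among the synaptic adhesion, surface and matrix targets the signs were the same. All 7 had RNA above 0 (median 0.13) and RPFs and TE below 0 (medians −0.13 and −0.24), and 6 of 7 had lower TE at an unadjusted p under 0.05. In the fit without WT vehicle replicate 3, RPFs and TE were below 0 in all 7 (medians −0.11 and −0.17), RNA was above 0 in 6 (median 0.074), and 4 had lower TE at that p. Lrp1, a lipoprotein and protease receptor of the neuronal surface, had RPFs of 961.4, 893.8 and 928.2 CPM with vehicle and 825.8, 815.5 and 840.7 CPM with DHPG. Those RPF values did not overlap, and the log2 fold change was −0.16 (SE 0.053, edgeR adjusted p = 0.517). The TE change of Lrp1 was −0.34 (SE 0.083, adjusted p = 0.164), and −0.21 (SE 0.081) without WT vehicle replicate 3. For the neurexin gene Nrxn3 the RPFs were 386.5, 395.7 and 428 CPM with vehicle and 373.4, 357.9 and 338.5 CPM with DHPG. They too were separate, at a log2 fold change of −0.18 (SE 0.059). RPFs of Nlgn3, a postsynaptic adhesion protein that binds neurexins, were 290.2, 269 and 286.5 CPM with vehicle and 252.8, 265.3 and 255.4 CPM with DHPG. For Ncan, the proteoglycan neurocan of the extracellular matrix, the RNA change was 0.15 (SE 0.052) and the TE change −0.26 (SE 0.079), and for Tenm4, a teneurin, the TE change was −0.26 (SE 0.105). Nlgn2, the neuroligin of inhibitory synapses, differed from these in its RPFs, at −0.0056 (SE 0.076), with RNA at 0.13 (SE 0.051). When that vehicle lysate was left out, Nrxn3 RPFs were at −0.11, Ncan RNA at 0.084 and TE at −0.22, Tenm4 TE at −0.16 and Nlgn2 RNA at 0.10.

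Of the active zone scaffolds, which organise transmitter release sites, Bsn (bassoon) had RPFs of 360.6, 299 and 350.4 CPM with vehicle and 298.6, 285.5 and 327.5 CPM with DHPG. Those values overlapped. Its TE change was −0.32 (SE 0.090, edgeR adjusted p = 0.22), and −0.19 (SE 0.092) without WT vehicle replicate 3. Pclo (piccolo), the partner scaffold, had a TE change of −0.13 (SE 0.129), and 0.065 in the fit that lacked that lysate.

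The microtubule-binding proteins and plakins had RPFs below 0 in 8 of 8 and TE below 0 in 8 of 8, with a median TE change of −0.20. Leaving out WT vehicle replicate 3 gave RPFs and TE below 0 in 4 of 8 each, and a median TE change of 0.0035. Map1a, a microtubule-associated protein of dendrites, had RNA of 1937, 2128 and 1874 CPM with vehicle and 2206, 2184 and 2343 CPM with DHPG. Its RNA values were separate, with a log2 fold change of 0.18 (SE 0.047, edgeR adjusted p = 0.541), and without WT vehicle replicate 3 this was 0.12 (SE 0.044). The RPFs of Map1a, at 2536, 2004 and 2822 CPM with vehicle and 1888, 2057 and 2342 CPM with DHPG, overlapped. Nav2, a microtubule-tip protein of growing neurites, had a TE change of −0.28 (SE 0.115), and its relatives Nav1 and Nav3 had −0.20 (SE 0.097) and −0.081 (SE 0.111). Without that lysate the TE of Nav2, Nav1 and Nav3 was −0.26, −0.14 and −0.044.

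The largest RPF differences by point estimate belonged to spectrins and plakins, and these had the widest errors. Sptan1, the αII-spectrin of the membrane skeleton, had RPFs of 1516, 1470 and 2638 CPM with vehicle and 1255, 1395 and 1729 CPM with DHPG in WT. For Dst, a plakin that links filaments to the membrane, they were 159.1, 163.4 and 321.8 CPM with vehicle and 144.9, 155.9 and 191.5 CPM with DHPG. Replicate 3 of WT vehicle was the highest of all 12 RPF libraries for Sptan1, Dst, Sptbn1 (βII-spectrin) and Macf1 (the plakin that crosslinks microtubules and actin), and WT DHPG replicate 1 the lowest. Log2 fold changes of RPFs were −0.35 (SE 0.304) for Sptan1, −0.36 (SE 0.335) for Dst, −0.30 (SE 0.254) for Sptbn1 and −0.28 (SE 0.273) for Macf1. Without WT vehicle replicate 3 they were 0.027, 0.081, −0.017 and 0.044. Ank2 and Ank3, the ankyrins that tether channels to this skeleton, had TE changes of −0.23 (SE 0.108) and −0.16 (SE 0.090), and of −0.042 and −0.0065 without that lysate.

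Ppp1r9b had RPFs of 236.3, 200.7 and 176.5 CPM with vehicle and 179.3, 176.1 and 191.3 CPM with DHPG, which overlapped, and a TE change of −0.30 (SE 0.086). Its TE change was no smaller without WT vehicle replicate 3, at −0.32 (SE 0.082, edgeR adjusted p = 0.193). The motor gene Myo5a, which carries cargo into spines, had a TE change of −0.031 (SE 0.080).

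The GTPase regulators and signalling proteins had TE below 0 in 7 of 7, with a median of −0.086, and in 5 of 7 with a median of −0.027 when WT vehicle replicate 3 was left out. Agap2 RNA was 2428, 2443 and 2092 CPM with vehicle and 2654, 2505 and 2491 CPM with DHPG, which did not overlap, at a log2 fold change of 0.14 (SE 0.048). Nisch, the imidazoline-binding protein nischarin, had RNA of 653.3, 697 and 652.9 CPM with vehicle and 740.5, 728.9 and 760.3 CPM with DHPG. Its RNA was separate as well, at 0.15 (SE 0.046), and its TE change was −0.25 (SE 0.075). By contrast the values of Nf1, the Ras-inactivating neurofibromin, were near 0 in RNA (0.025), RPFs (0.018) and TE (−0.0088), each smaller than its SE. Trio and Kalrn, exchange factors that activate Rac, had TE changes of −0.071 (SE 0.086) and −0.086 (SE 0.077). Without WT vehicle replicate 3, Agap2 RNA was at 0.083, Nisch RNA at 0.13 and TE at −0.14, and the TE of Trio and Kalrn at −0.027 and −0.0027.

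The ubiquitin ligases had a median TE change of −0.032 with 3 of 6 above 0, and 0.043 with 3 of 6 above 0 when WT vehicle replicate 3 was left out. Ubr4, a ligase that reads protein N-termini, had RNA of 256.5, 270.2 and 238.3 CPM with vehicle and 282.6, 273.6 and 312.5 CPM with DHPG, at 0.18 (SE 0.056), and Huwe1 had a TE change of −0.23 (SE 0.101). Leaving out that lysate put Ubr4 RNA at 0.11 and Huwe1 TE at −0.051. The TE values of Birc6, a giant inhibitor of apoptosis, and of the ligases Herc1, Herc2 and Mycbp2 were smaller than their SEs, at 0.036 (SE 0.094), 0.025 (SE 0.086), −0.068 (SE 0.089) and 0.0051 (SE 0.088). RPFs of Birc6 had a value of 0.053 (SE 0.065).

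In Tsc2+/- slices the median log2 fold change with DHPG was 0.040 for RNA (30 above 0), 0.028 for RPFs (25 above 0) and −0.014 for TE (24 below 0). The WT medians without vehicle replicate 3 were 0.0084, −0.036 and −0.070, and with all libraries no target passed the test of a difference in response. By edgeR no target was called in any of the 3 measures, nor was any by DESeq2, and 0% of all genes were called by edgeR. At an unadjusted p under 0.05 there were 2 targets with higher and 1 with lower RNA (2.16% of all genes each way), 0 for RPFs (2.15% higher and 1.88% lower) and 1 with lower and 0 with higher TE (1.77% and 1.89%). The RNA of Nav2, at 77.88, 65.8 and 73.27 CPM with vehicle and 92.48, 79.43 and 78.5 CPM with DHPG, had a log2 fold change of 0.21 (SE 0.069, edgeR adjusted p = 1) and its TE one of −0.27 (SE 0.116). Its RNA values did not overlap. Tenm4 RNA was 135.8, 160.7 and 152 CPM with vehicle and 173.6, 162.8 and 156.1 CPM with DHPG, at 0.14 (SE 0.062), with overlap. Kalrn RNA had a value of −0.11 (SE 0.052) and Bsn RNA one of 0.10 (SE 0.054). RPFs of Lrp1 had a log2 fold change of 0.10 (SE 0.053), those of Bsn 0.076 (SE 0.067), those of Birc6 0.076 (SE 0.065) and those of Agap2 −0.071 (SE 0.070).

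TE values with DHPG in Tsc2+/- that had 1 direction in all 3 contrasts of same-numbered libraries were small against their errors. They were −0.085 (SE 0.090) for Ank3 and −0.14 (SE 0.127) for Spen on the lower side, and 0.087 (SE 0.080) for Myo5a, 0.082 (SE 0.076) for Kalrn and 0.043 (SE 0.086) for Herc1 on the higher side.

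**Figure D5:**
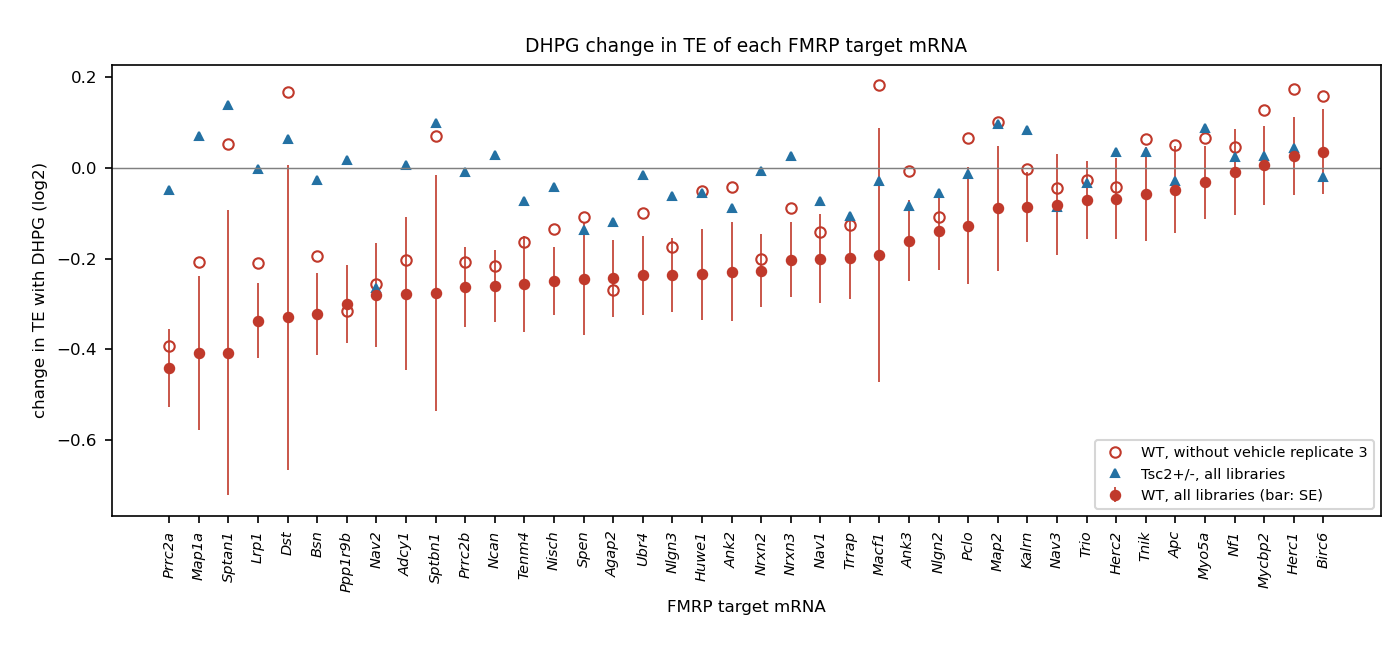
Change in TE with DHPG (log2) for each of the 40 FMRP targets, ordered by the value in WT with all libraries (filled circles, bars are SE), beside the value in WT without vehicle replicate 3 (open circles) and in Tsc2+/- (triangles). The filled circles run from −0.44 (Prrc2a) to 0.036 (Birc6), with 37 of 40 below 0, and the open circles have 27 below 0.

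Whether the response to DHPG differed between genotypes was tested directly by the interaction (the response in Tsc2+/- minus that in WT). Its median over the targets was −0.046 for RNA, 0.11 for RPFs and 0.17 for TE, against 0.00061, −0.0035 and −0.0028 over all genes and −0.021, 0.057 and 0.077 over genes of like coding length. No target was called by edgeR in any measure (0% of all genes in each), nor by DESeq2. With an unadjusted p under 0.05, 4 targets had lower and 0 higher RNA values (1.7% and 1.76% of all genes), 5 higher and 0 lower RPF values (1.86% and 1.95%), and 6 higher and 0 lower TE values (2.24% and 1.81%). These 6 were Prrc2a (0.39, SE 0.121), Lrp1 (0.33, SE 0.117), Ppp1r9b (0.32, SE 0.121), Bsn (0.30, SE 0.128), Ncan (0.29, SE 0.112) and Prrc2b (0.25, SE 0.125), with edgeR adjusted p = 0.999 for all. With all libraries, no single target passed the test of a difference between the genotypes in their response. Without both libraries of WT vehicle replicate 2, edgeR called Prrc2a for TE (0.56, adjusted p = 0.0773). The share of all genes called in that fit is not given. This contrast also uses the WT vehicle libraries, and without replicate 3 of them its medians were 0.023 for RNA, 0.076 for RPFs and 0.044 for TE.

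The next comparison asked how the targets stood in Tsc2+/- slices at rest. With vehicle, the median log2 fold change of Tsc2+/- against WT was 0.057 for RNA (33 above 0), −0.037 for RPFs (35 below 0) and −0.10 for TE (37 below 0). This comparison uses the same WT vehicle libraries as DHPG in WT, so the 2 sets of values are not independent. None of the targets was called in RNA (0.0896% of all genes), RPFs (0.0233%) or TE (0%) by edgeR, and none by DESeq2. At an unadjusted p under 0.05, 5 had higher and 0 lower RNA (2.6% and 2.3% of all genes), 4 lower and 0 higher RPFs (3.17% and 3.38%) and 5 lower and 0 higher TE (3.06% and 2.71%). Genes of like coding length had medians of 0.024, −0.032 and −0.061.

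Without WT vehicle replicate 3 these medians were −0.00097 for RNA (19 above 0), −0.0013 for RPFs (20 above 0) and 1.13e-05 for TE (20 above 0). In contrasts of same-numbered libraries the median RNA difference was −0.027, 0.012 and 0.19 for replicates 1, 2 and 3, and the median difference of the ratio was 0.064, 0.052 and −0.37. The ratio was thus above 0 in replicates 1 and 2 and below 0 in replicate 3 alone. Without WT vehicle replicate 2, edgeR called Map1a for RNA (0.23, adjusted p = 0.045). For TE it then called Bsn (−0.38, adjusted p = 0.0749) and Prrc2a (−0.40, adjusted p = 0.0345). The share of all genes called in those fits is not given.

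Among single targets, Map1a RNA was 2143, 2257 and 2290 CPM in Tsc2+/- vehicle libraries, above all 3 WT vehicle libraries, with a log2 fold change of 0.17 (SE 0.047, edgeR adjusted p = 0.428). Without WT vehicle replicate 3 it was 0.11 (SE 0.044). RNA of Nisch, at 710.2, 732.7 and 734.9 CPM, and of Nlgn3, at 160.7, 156 and 166.2 CPM, was also above that of every WT vehicle library, with log2 fold changes of 0.12 (SE 0.046) and 0.14 (SE 0.056). RPFs of Prrc2b were 185.6, 187.2 and 158.2 CPM, below every WT vehicle library, and its RPF and TE changes were −0.20 (SE 0.068) and −0.24 (SE 0.088). For Ppp1r9b the values were −0.13 (SE 0.070) in RPFs and −0.23 (SE 0.086) in TE, for Nav2 −0.14 (SE 0.092) in RPFs and for Ubr4 −0.15 (SE 0.087) in TE. In the fit without WT vehicle replicate 3, Ubr4 TE was at −0.024, Nisch and Nlgn3 RNA at 0.096 and 0.086, RPFs of Prrc2b, Ppp1r9b and Nav2 at −0.23, −0.21 and −0.18, and TE of Prrc2b and Ppp1r9b at −0.19 and −0.25.

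With DHPG on board in both genotypes, the medians of Tsc2+/- against WT were 0.0042 for RNA, 0.064 for RPFs (30 above 0) and 0.052 for TE (32 above 0), against 0.0072, 0.021 and 0.016 over genes of like coding length. WT vehicle libraries do not enter these differences. By edgeR 0 targets were called in RNA (0.0482% of all genes), RPFs (0.0155%) and TE (0%), and DESeq2 called none. With an unadjusted p under 0.05, 4 had higher and 0 lower RNA (2.28% and 2.36% of all genes), 4 higher and 0 lower RPFs (2.08% and 2.05%) and 3 higher and 0 lower TE (1.5% and 1.53%). RPFs of Lrp1, at 825.8, 815.5 and 840.7 CPM in WT and 1023, 884.9 and 862.5 CPM in Tsc2+/-, did not overlap, at a log2 fold change of 0.15 (SE 0.053, edgeR adjusted p = 1). For Nrxn3 the Tsc2+/- libraries held 390.9, 392.9 and 388.5 CPM, above each WT DHPG library, at 0.13 (SE 0.059). Ncan RPFs had a value of 0.12 (SE 0.056), and the TE changes of these targets were 0.20 (SE 0.083) for Lrp1, 0.17 (SE 0.082) for Nrxn3 and 0.16 (SE 0.079) for Ncan. RNA of the plakin gene Macf1, at 175.5, 173.7 and 144.9 CPM in WT and 186.1, 182.4 and 196.6 CPM in Tsc2+/-, was separate at 0.20 (SE 0.062), and that of Dst had a value of 0.13 (SE 0.059). On the lower side, RNA of Prrc2a, Nlgn2 and Lrp1 had values of −0.053 (SE 0.052), −0.057 (SE 0.051) and −0.042 (SE 0.058), and Mycbp2 had −0.057 (SE 0.063) in RPFs and −0.086 (SE 0.088) in TE. Leaving out all libraries of replicate 3 gave 5 called targets for RPFs, where 0.363% of all genes were called, namely Sptan1 (0.54), Sptbn1 (0.59), Dst (0.57), Macf1 (0.48) and Map2 (0.28), genes picked out here after their values were seen.

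Averaged over both treatments, 1 target was called between genotypes. RNA of Apc, the tumour suppressor that binds microtubules and β-catenin, was 434.8, 392.9 and 376.3 CPM in WT vehicle and 440.4, 424.3 and 357.1 CPM in WT DHPG libraries. It was 432.4, 446.2 and 491.3 CPM in Tsc2+/- vehicle and 504.5, 479.2 and 462.7 CPM in Tsc2+/- DHPG libraries. Those ranges met, with 432.4 CPM in the lowest Tsc2+/- and 440.4 CPM in the highest WT library. Apc RNA rose by a log2 fold change of 0.22 (SE 0.045, 1.16-fold, edgeR adjusted p = 0.031), where 0.227% of all genes were called. Over the alternatives the adjusted p ran from 1.21e-05 to 0.571, with a log2 fold change of 0.14 to 0.28, and it was 0.571 without WT vehicle replicate 3, 0.464 without replicate 2 and 0.351 without replicate 3. Apc RPFs had a value of 0.092 (SE 0.045), and its TE one of −0.12 (SE 0.067). No other target was called in RNA, and for RPFs and TE edgeR called none of the 40 (0.0621% and 0% of all genes), and neither did DESeq2. At an unadjusted p under 0.05, 7 targets had higher and 0 lower RNA (3.05% and 3.07% of all genes), 1 had higher and 2 lower RPFs (3.18% and 3.46%), and 0 differed in TE (2.07% higher and 2.42% lower).

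Averaged over genotypes, the DHPG medians were 0.056 for RNA, −0.045 for RPFs and −0.12 for TE, against 0.033, −0.031 and −0.063 over genes of like coding length. By edgeR 0 targets were called in RNA (0.0207% of all genes), RPFs (0.0311%) and TE (0.0469%), while DESeq2 called 3 for RNA (Bsn, Nisch and Map1a, with 0.179% of all genes) and 1 for TE (0.508% of all genes). With an unadjusted p under 0.05, 14 had higher and 0 lower RNA (4.07% and 3.42% of all genes), 3 lower and 0 higher RPFs (2.68% and 4.14%) and 16 lower and 0 higher TE (4.07% and 4.43%). Leaving out both libraries of WT vehicle replicate 3 moved the TE median to −0.060.

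As a share of all counts, the 40 targets took 1.96% ± 0.12 (SD, n = 3) of RNA in WT libraries given vehicle and 2.07% ± 0.029 in those given DHPG. In Tsc2+/- libraries they took 2.04% ± 0.0042 and 2.07% ± 0.042. Their share of RPFs was 1.56% ± 0.16 and 1.40% ± 0.082 in WT and 1.48% ± 0.11 and 1.53% ± 0.11 in Tsc2+/-. The spread of the RPF share within WT vehicle, from 1.429% to 1.747%, covered the means of all groups but WT DHPG. The study's methods describe the lysates of a group as biological replicates, each pooled from several mice, so p-values measure the spread between such pools.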

How the data were processed

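RNA-seq and ribosome profiling libraries of 12 lysates were analysed (24 libraries, 8 groups of 3). Per the study's methods, the authors trimmed reads with Cutadapt and Trimmomatic, removed rRNA and tRNA reads with Bowtie2, mapped to mm10 with TopHat2 and marked PCR duplicates by molecular identifiers. The authors deposited expected counts per gene from RSEM, as whole numbers, with RPFs counted on coding sequences without the 30 bases at each end. RNA and RPF counts were fitted with edgeR 4.0.16 (R 4.3.3; TMM scaling, filterByExpr with a minimum count of 10, robust quasi-likelihood F test, group plus replicate number), and TE by an assay by group interaction in all 24 libraries. The Benjamini-Hochberg adjustment covered every gene tested (14516 for RNA, 12877 for RPFs, 12785 for TE), and a gene was called at an adjusted p under 0.1. SE is the fold change divided by the root of F. The TE fit treated the RNA and RPF libraries of a lysate as independent. CPM values of the targets and Tsc2 use library totals scaled by TMM, and log2 ratios of single libraries use a prior count of 2. Marker sums use library totals without that scaling. Genes of like expression or coding length lay between the 10th and 90th percentile of the targets.

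Coding lengths and sequences are those of RefSeq. Named targets are those called in any comparison and, in each simple comparison and measure, up to 3 higher and 3 lower with the smallest p among those with 1 direction in 3 of 3 contrasts of same-numbered libraries. Other targets named to describe a role group were picked after their values were seen. The targets and gene lists were chosen with earlier results of these data known. On simulated counts for DHPG in WT, 94% of RNA (14352 genes), 82% of RPF (12816) and 51% of TE (12703) changes of 0.5 on the log2 scale were recovered, and 100%, 100% and 98% of changes of 1. The simulated counts had the same spread for every gene and no differences between replicates or lysates, and only well-counted genes were changed. Recovery in the real libraries can therefore be lower. Alternatives were no block, DESeq2 1.42.0, ComBat (sva 3.50.0), other scaling, no filter, removal of length and GC trends, limma 3.58.1 on ratios, and leaving out libraries.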

Additional observations from a re-analysis of the deposited data

How the results depend on the processing

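Under the alternatives, 2705 values stayed on their side of the threshold or within the spread set for them, 133 counts or medians moved, 26 single-gene calls or values were weaker, 19 stronger and 6 reversed. The limma fit on ratios, the leaving out of both libraries of a lysate and the counts at an unadjusted p under 0.05 were chosen after seeing the data. Groups shared replicate numbers, and the study's methods describe the replicates as batches, though no label ties a number to a batch. Same-numbered libraries correlated at 0.0228 to 0.143 for RNA and 0.033 to 0.263 for RPFs, over 0.1 in 5 and 9 of 18 pairs, and all 12 libraries of each assay correlated best with their own number. Without the replicate block, RNA called between genotypes averaged over treatments was 0, TE called with DHPG in WT 0, and targets at an unadjusted p under 0.05 were 1 (RPFs lower, genotype in vehicle), 5 (RPFs lower, DHPG in WT) and 3 (TE lower, genotype in vehicle). DESeq2 called 3 for RNA and 1 for TE with DHPG averaged over genotypes (0.179% and 0.508% of all genes) and 2 for TE with DHPG in WT (0.79%), and gave 1 with lower RPFs for genotype in vehicle. ComBat gave 1 with lower RPFs for genotype in vehicle and 5 for DHPG in WT. Without a filter, 8 had higher RNA for genotype in vehicle, and 1 was called for RNA between genotypes in DHPG and 1 with DHPG averaged. With length and GC trends removed, RNA medians were −0.0083 for genotype in DHPG and −0.0052 for DHPG in Tsc2+/-, RPF medians −0.023 for DHPG in WT, 0.028 for the interaction and −0.0023 for DHPG averaged, and TE medians −0.040 for DHPG in WT and −0.021 for DHPG averaged. In that fit 3 had higher RNA, 2 lower RPFs and 2 lower TE with DHPG in WT, 0 lower RPFs and 0 lower TE for genotype in vehicle, and 0 were called for TE with DHPG in WT. With limma on ratios, 0 were called for TE with DHPG in WT, 9 had lower TE there and 1 for genotype in vehicle. Except for the DESeq2 calls, the counts of targets in this paragraph stand without the share of all genes. That share moved between fits too, as given above for the fit without WT vehicle replicate 2. A count alone is therefore no result about the targets. Leaving out libraries gave RNA calls of 0 to 6 (DHPG averaged), 0 to 9 (DHPG in WT), 0 to 1 (genotype averaged, in DHPG and in vehicle), 3 to 18 with higher RNA (DHPG in WT), 1 to 14 (genotype in vehicle) and an RNA median of −0.024 to 0.035 (genotype in DHPG). RPF calls were 0 to 1 (DHPG in WT), 0 to 7 (genotype averaged) and 0 to 5 (genotype in DHPG), lower RPFs 2 to 10 (DHPG in WT) and 0 to 6 (genotype in vehicle), and RPF medians −0.063 to −0.018 (DHPG averaged) and −0.15 to −0.036 (DHPG in WT). TE calls were 0 to 5 (DHPG averaged), 0 to 13 (DHPG in WT), 0 to 3 (genotype averaged), 0 to 1 (interaction and genotype in DHPG) and 0 to 2 (genotype in vehicle), lower TE 8 to 23 (DHPG in WT) and 1 to 15 (genotype in vehicle), and TE medians −0.16 to −0.060 (DHPG averaged), −0.086 to 0.030 (DHPG in Tsc2+/-) and −0.30 to −0.070 (DHPG in WT). Signs reversed for RNA of Lrp1 between genotypes in DHPG (−0.096 to 0.018, the latter without WT DHPG replicate 3), RPFs of Birc6 with DHPG in WT (−0.0066 without WT vehicle replicate 1, up to 0.12), RPFs of Agap2 with DHPG in Tsc2+/- (−0.11 to 0.0067, the latter without Tsc2+/- vehicle replicate 3) and TE of Herc1 with DHPG in Tsc2+/- (−0.0034 and −0.036 without the RNA library or both libraries of Tsc2+/- vehicle replicate 3, −0.0020 without Tsc2+/- DHPG replicate 1, up to 0.11). The cause was not tested. TE changes of 0.5 on the log2 scale were recovered for 51% of the changed genes in the simulated counts. Smaller changes were not simulated, and recovery in the real libraries can be lower. The simulated recovery came from counts without lysate differences.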

Other observations

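Across the 40 FMRP targets, the number of AGGA and TGGA letters per kb of coding sequence went with the TE change in Tsc2+/- slices given DHPG (Spearman rho 0.51, Pearson r 0.48), against 0.027 over all genes. For DHPG in WT the same correlation was −0.11 (Pearson r −0.21). The value in Tsc2+/- was the largest computed for these letters over the measures and simple comparisons, and is named after it was seen. No target was called for TE with DHPG in Tsc2+/- slices. These correlations are descriptions across genes that share the same 24 libraries, and the difference between the genotypes was not tested.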
